A study of Mus musculus with 6 samples.

Results

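The genes described here encode the apoptosis machinery, and they comprise BCL2 family proteins, caspases, inhibitor of apoptosis proteins, death-receptor adaptors and death-associated factors. They were taken as a fixed list of 37 gene symbols, all 37 of which matched an identifier among the 53379 in the count tables, and were set out as 27 death-promoting and 10 protective members by their textbook roles. RNA-seq had been performed on total RNA of Min6 cells, a mouse insulinoma line that keeps many features of pancreatic beta cells, grown in high-glucose medium. Every library came from passage 28 cells carrying the CRISPR-Cas9 vector lentiCRISPR v2, collected on day 8 after transduction following 30 hours under glucolipotoxic conditions. These are conditions of excess glucose and fatty acid that stress beta cells, and the control group received them too. The Rosa26 gRNA group (3 libraries) carried a guide against the Rosa26 locus as negative control, and the JunD gRNA group (3 libraries) a guide against Jund, which encodes an AP-1 transcription factor. No unstressed library was analysed here. Whether the cells were clones or a transduced pool, and whether replicates were separate transductions, the labels do not say, so p-values measure only the spread between these libraries, which may be technical.

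Apoptosis by the mitochondrial route is decided among BCL2 family proteins. BH3-only proteins sense stress, guardians such as BCL2 and MCL1 hold them in check, and effectors such as BAK permeabilise the outer mitochondrial membrane. Released cytochrome c then joins APAF1 to activate caspase 9, which activates executioner caspases, while inhibitor of apoptosis proteins (IAPs) restrain caspases or tag signalling proteins with ubiquitin. In the death-receptor route, adaptors such as FADD recruit caspase 8, and cFLIP, the product of Cflar, opposes it. In beta cells both routes are studied as ways in which metabolic and inflammatory stress causes cell loss.

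Library totals ran from 41071566 to 50024931 counts. Rosa26 gRNA replicate 1 stood apart: the first principal component, with 45.8% of the variance, placed it at -62.1 and the other 5 libraries between 6.09 and 22.5. Each result is therefore given for all 6 libraries and for the 5 without it. All 9 beta-cell marker genes were above 1 CPM (a gene's counts scaled to the same library total) on average, with a summed level of 41314 to 75914 CPM in the Rosa26 gRNA libraries and 74472 to 80369 CPM in the JunD gRNA libraries. The marker sums of 3 other cell types did not overlap between the guides, and the same held for 24.4% of 17767 single genes. Of the immune markers 1 of 6 reached 1 CPM (Adgre1 and Cd3e were at 0 counts), and their sum was 3.6 to 4.46 CPM under the Rosa26 gRNA and 2.58 to 3.45 CPM under the JunD gRNA. Of the endothelial markers 2 of 4 reached it, with sums of 2.55 to 3.16 and 2.09 to 2.48 CPM, and of the ductal markers 2 of 3, with sums of 51.4 to 59.9 and 61.9 to 64 CPM. The cells were a cultured line, so these sums do not show that cells of such types were present. Their part in the results was not tested, and in such bulk RNA fewer cells of a type and less RNA per cell cannot be told apart. The sums of fibroblast markers (1.77 to 3.78 and 2.09 to 3.02 CPM) and acinar markers (0.0836 to 0.12 and 0.0403 to 0.219 CPM) overlapped between the guides. So did those of other islet endocrine markers (535.3 to 721.4 and 672.1 to 701.2 CPM), of which 3 of 4 reached 1 CPM. Jund was at 39.3, 34.5 and 30.4 CPM in the Rosa26 gRNA libraries and at 22.6, 25.1 and 26.9 CPM in the JunD gRNA libraries, so the groups did not overlap. Its log2 fold change (JunD minus Rosa26 gRNA, here and throughout) was -0.47 (adjusted p = 0.417) with all 6 libraries and -0.38 (adjusted p = 0.00773) with 5. Its GC content is 67.1%. Corrected for transcript GC content and length, these values were -0.66 (edgeR adjusted p = 0.0637) and -0.51 (edgeR adjusted p = 1.78e-05). With Rosa26 gRNA replicate 2 or 3 also left out, which leaves 1 control library, Jund was at -0.28 (adjusted p = 0.276) and -0.46 (adjusted p = 0.0502).

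At an adjusted p under 0.05, genes of the death machinery passed a test between the guides as rarely as all genes tested. With all 6 libraries 0 of the 35 members tested passed edgeR's quasi-likelihood test at an adjusted p under 0.05, where 0% of 17767 genes passed. DESeq2 and limma-voom also called 0 members. Without Rosa26 gRNA replicate 1, 1 of 35 members passed, where 2.86% of 18296 genes did. That member, Birc3, which encodes the inhibitor of apoptosis protein cIAP2, fell. At an unadjusted p under 0.05 there were 7 members with 6 libraries (20%, against 11.9% of all genes) and 7 with 5 (20%, against 15.9%). With 6 libraries 2 of them were higher (5.41% of all genes) and 5 lower (6.51%), and with 5 libraries 3 were higher (8.31%) and 4 lower (7.59%). Of all 35, 16 had a log2 fold change above 0 (48.9% of all genes) and 19 below (51.1%) with 6 libraries, and 17 above (49.2%) and 18 below (50.8%) with 5. The median absolute log2 fold change was 0.15 among members and 0.16 among all genes with 6 libraries, and 0.10 and 0.11 with 5. Casp12 and Ripk3 did not pass the filter on low counts and were not tested.

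**Figure D1:**
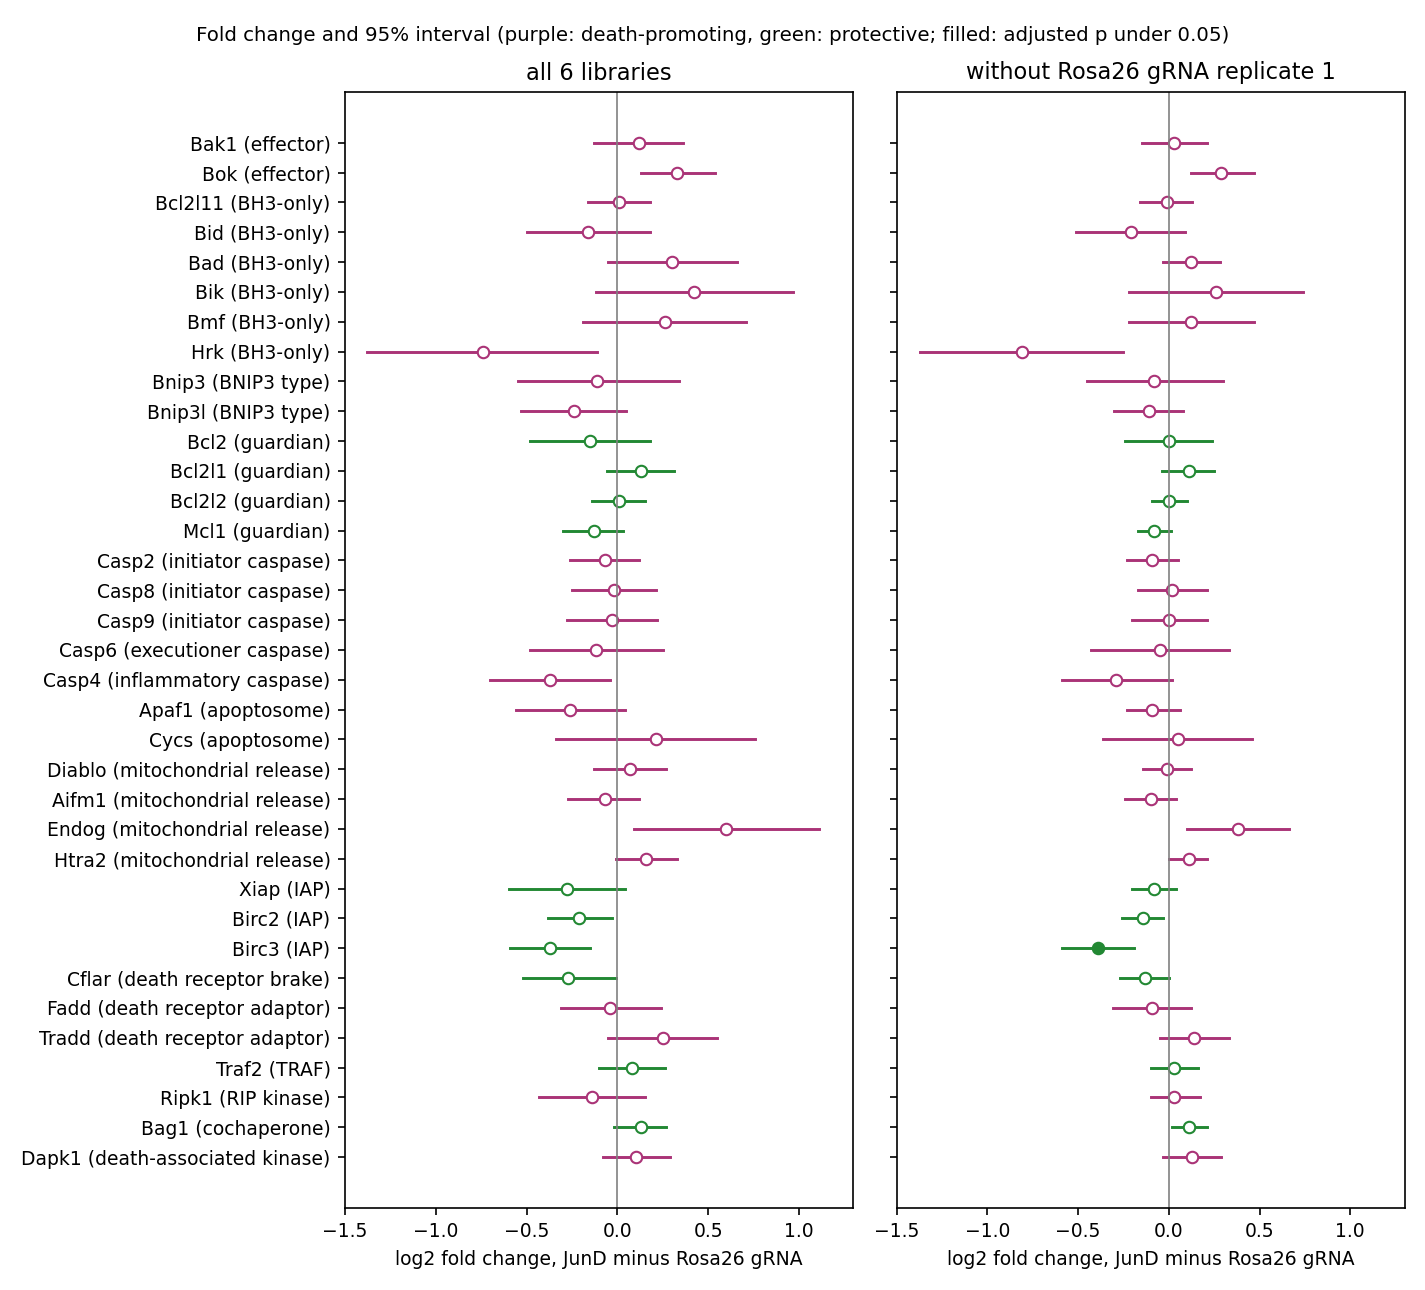
Log2 fold change (x axis, JunD minus Rosa26 gRNA) of the 35 tested members, with 95% intervals as bars, for all 6 libraries (left) and without Rosa26 gRNA replicate 1 (right). Filled points have an adjusted p under 0.05: 0 on the left and Birc3 alone on the right, where most intervals are narrower.

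The intervals bound the differences between these libraries, whose spread may be technical. They do not bound the effect of losing JunD, and those with 5 libraries come after a control was left out. With 5 libraries the 95% interval of 29 of 35 members lay within a log2 fold change of 0.5 either way (1.41-fold), and that of 34 lay within 1.0 (2-fold). With 6 libraries these numbers were 19 and 33. Hrk, at low counts, and Endog were outside the 2-fold bound with 6 libraries, and Hrk with 5. The SE of Endog was 0.23 with 6 libraries and 0.14 with 5.

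Per length of exon, protective transcripts held the top 3 ranks. RPKM (CPM per kilobase of exon) averaged 79.3 ± 3.64 (SD over 6 libraries) for Bag1, a cochaperone that binds BCL2, 44 ± 3.65 for Mcl1 and 28.1 ± 0.69 for Bcl2l2, the BCL-W gene. Htra2, which encodes a mitochondrial protease released in apoptosis, followed at 21.8 ± 1.42. These 4 ranges over libraries did not overlap each other or the next member. Birc2 stood at 10.6 ± 1.1, and below it the order was loose: the ranges of 30 of the 32 neighbouring pairs overlapped. Of the tested members 17 were above the median of all genes tested, 4.19 RPKM. Bcl2 itself averaged 0.911 ± 0.136 RPKM, and Casp6, the executioner caspase among the members, 0.517 ± 0.0522. Casp12, which encodes an inflammatory-type caspase of rodents, had 0 counts in every library, which allows up to 0.06 to 0.073 CPM (3 counts, counting error only). Ripk3, the kinase that starts necroptosis, had 0, 9 and 2 counts in the Rosa26 gRNA libraries and 1, 3 and 27 in the JunD gRNA libraries, so its highest value rests on JunD gRNA replicate 3 alone.

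**Figure D2:**
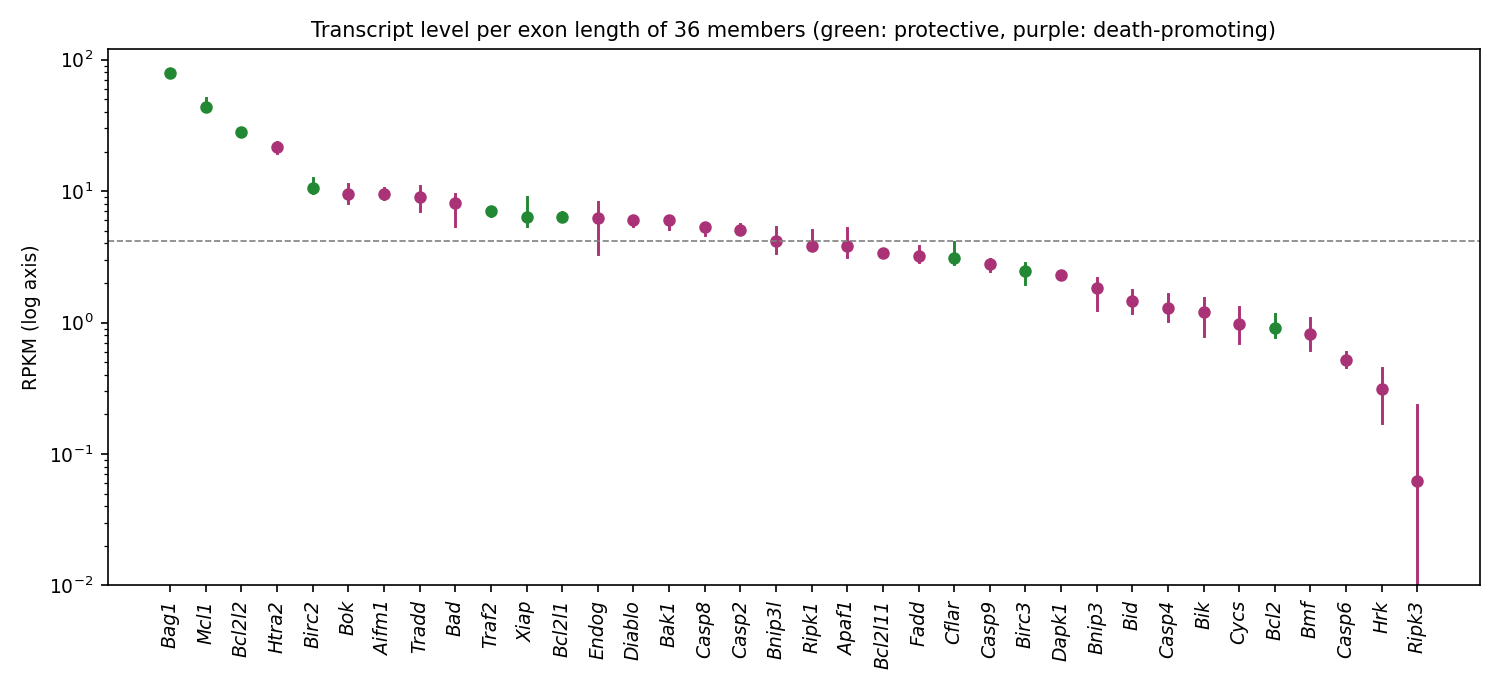
RPKM on a log axis for the 36 members with any count, ordered by their mean over 6 libraries (points), with the range over libraries as bars and the median of all genes tested (4.19 RPKM) as the dashed line. Bag1, Mcl1 and Bcl2l2 lead the order and Ripk3 ends it, its lowest library being at 0 and drawn to the axis limit.

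Birc3 was the member that passed. The gene (ENSMUSG00000032000.17) lies on chromosome 9 from 7848699 to 7873186, on the minus strand of GRCm38 (mm10), and cIAP2 ubiquitinates RIPK1 in TNF receptor signalling. It stood at 13.8, 14.2 and 14 CPM under the Rosa26 gRNA and at 10.7, 11.6 and 9.85 CPM under the JunD gRNA. Every JunD gRNA library was below every Rosa26 gRNA library, and the controls lay close together, Rosa26 gRNA replicate 1 among them. With 5 libraries Birc3 fell by 0.39 ± 0.10 (SE) on the log2 scale (95% interval -0.59 to -0.19, edgeR adjusted p = 0.0281), where 1.4% of all genes passed as lower. With 6 libraries the value was -0.37 ± 0.10 (adjusted p = 0.417). The size was nearly the same with and without the library that stands apart, and the call differed. With Rosa26 gRNA replicate 2 or 3 also left out, 1 control library remained and Birc3 did not pass (-0.38, adjusted p = 0.237, and -0.39, adjusted p = 0.384).

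Birc2, the gene of the related cIAP1, is its neighbour, 11634 bases away on the same strand (ENSMUSG00000057367.12, chromosome 9 from 7818227 to 7837064). Its level was 57.8, 49.1 and 50.4 CPM under the Rosa26 gRNA and 44.6, 45.3 and 45 CPM under the JunD gRNA. The groups did not overlap, and Rosa26 gRNA replicate 1 was the highest library. The log2 fold change was -0.21 ± 0.08 (SE) with 6 libraries (adjusted p = 0.417) and -0.14 ± 0.06 with 5 (adjusted p = 0.192), and did not pass. After a correction for transcript GC content and length Birc2 was at -0.07 with 5 libraries (adjusted p = 0.59) while Birc3 was at -0.36 (adjusted p = 0.0278). Birc2 and Birc3 are related in sequence, so the authors' counting could split reads between them.

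The bases before the start sites of both neighbours are shown because they are the IAP pair with separated groups and Jund encodes a factor that binds DNA. They are the 250 bases upstream of the RefSeq start on GRCm38.p6, on the gene's own strand (minus), at chr9:7873171-7873420 for Birc3 and chr9:7837058-7837307 for Birc2. Capitals mark a match to a cyclic AMP response element, TGACGTCA, from 35 to 28 bases before the start of Birc2. Birc3 has no capitals, as it held no match to any motif searched.
Birc3: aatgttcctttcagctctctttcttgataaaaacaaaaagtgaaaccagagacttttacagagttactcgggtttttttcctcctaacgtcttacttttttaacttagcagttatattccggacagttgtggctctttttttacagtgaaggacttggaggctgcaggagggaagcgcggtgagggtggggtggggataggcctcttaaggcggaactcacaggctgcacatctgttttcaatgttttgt
Birc2: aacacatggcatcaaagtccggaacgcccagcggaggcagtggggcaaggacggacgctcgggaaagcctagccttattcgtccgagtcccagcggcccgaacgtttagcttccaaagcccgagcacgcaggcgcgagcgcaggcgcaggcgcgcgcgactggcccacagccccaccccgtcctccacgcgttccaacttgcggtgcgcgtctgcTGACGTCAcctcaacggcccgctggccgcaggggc
The GC content of these bases was 43.6% for Birc3 and 68.4% for Birc2.

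Promoters of 33 of the 37 members were matched in RefSeq's windows of 250 bases before to 50 after each start. The AP-1 heptamer TGACTCA, on either strand, was in 0 of the 33 members' promoters and in those of 5.95% of 27025 genes. The cyclic AMP response element TGACGTCA was in 2 (Cycs and Birc2), or 6.06%, against 2.03% of genes. The NF-kB consensus was in 6 (Bmf, Hrk, Bcl2l1, Casp4, Aifm1 and Xiap), or 18.2%, against 9.55%. No member's promoter held matches to more than 1 of the 3 motifs. A match is a run of letters and not a measured binding site.

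Xiap, which encodes the IAP that blocks active caspases directly, did not pass. It stood at 85, 56.2 and 58.1 CPM under the Rosa26 gRNA and 56.3, 51.4 and 53.8 CPM under the JunD gRNA. Only Rosa26 gRNA replicate 1 was far from the rest. The log2 fold change was -0.28 ± 0.14 (SE) with 6 libraries and -0.08 ± 0.06 with 5, and turned to 0.05 in both after the GC and length correction. Its transcript has the lowest GC content of all members, 36.8%.

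Cflar, the caspase 8 brake, was at 51.9, 41.5 and 37 CPM in the Rosa26 gRNA libraries and at 35.3, 36 and 35.8 CPM in the JunD gRNA libraries. The groups did not overlap, but the gap to Rosa26 gRNA replicate 3 was small. It did not pass (-0.27 ± 0.11, SE, for 6 libraries at an adjusted p of 0.417, and -0.13 ± 0.06 for 5 at an adjusted p of 0.3). After the correction it was at -0.05 with 5 libraries.

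**Figure D3:**
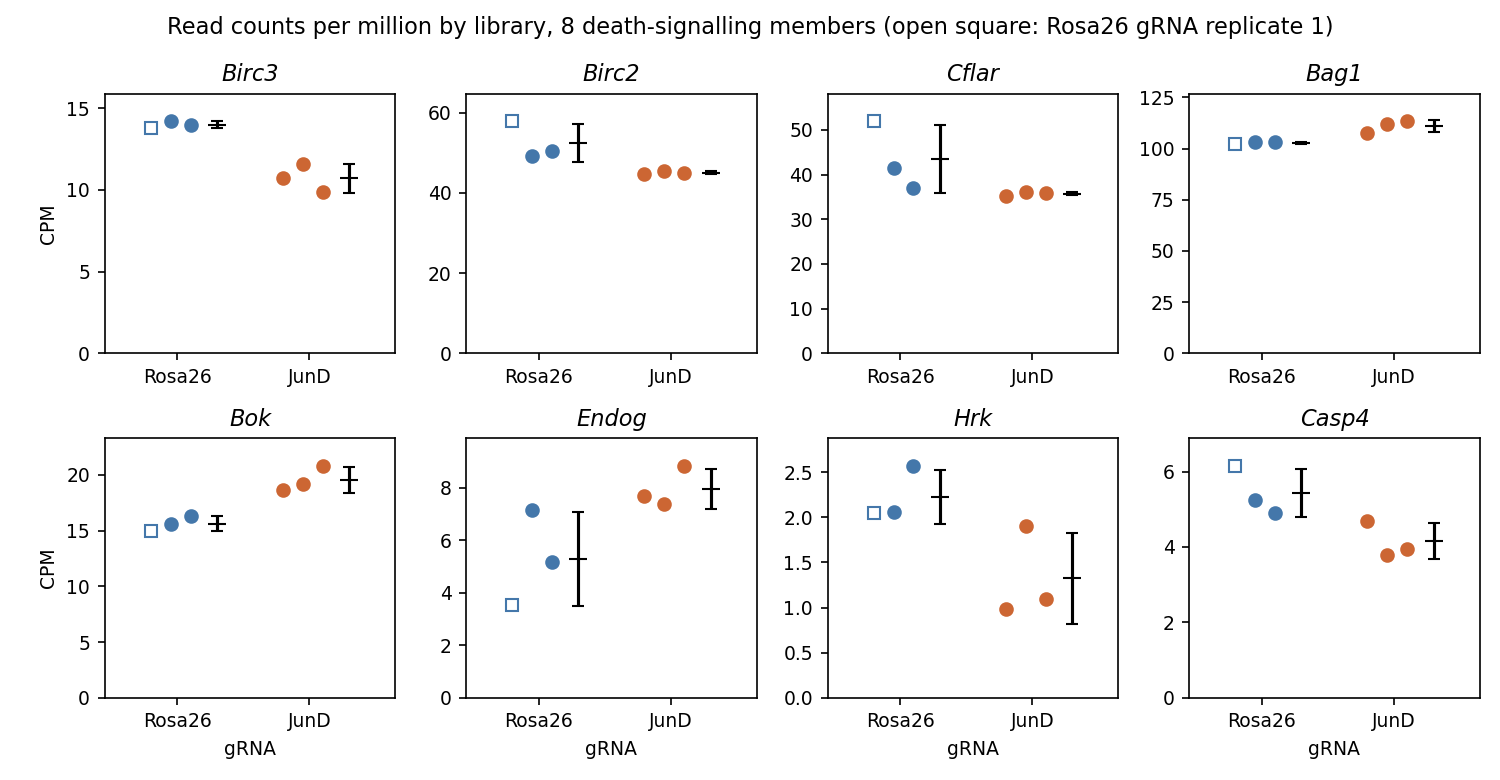
CPM (y axis from 0) in each library for the 8 members with an unadjusted p under 0.05 in either fit, with the mean and SD of each group of 3 in black; the open square is Rosa26 gRNA replicate 1. In Birc3 and Bag1 the 3 control libraries lie close together, and in Cflar and Birc2 the open square lies well above the other controls.

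Among the pore-forming effectors, Bok was higher under the JunD gRNA without passing. Bok (ENSMUSG00000026278.14, chromosome 1 from 93685660 to 93695764, plus strand) encodes a BAX-like protein. It stood at 15, 15.6 and 16.3 CPM under the Rosa26 gRNA and at 18.6, 19.2 and 20.8 CPM under the JunD gRNA. Every JunD gRNA library was above every control, and the control libraries lay close together. Its log2 fold change was 0.33 ± 0.09 (SE) with 6 libraries (adjusted p = 0.417) and 0.29 ± 0.08 with 5 (95% interval 0.12 to 0.47, adjusted p = 0.0527). With 5 libraries it passed in DESeq2 (adjusted p = 0.042), without a count filter (0.0312) and with a stricter one (0.0498). It also passed with the replicate block (0.0232) and without JunD gRNA replicate 1 (0.0364), and in no other alternative there. After the GC and length correction it was at 0.21 (adjusted p = 0.182), and its GC content is 61%. Bak1, the other effector, was at 14 ± 1.32 CPM (SD, n = 3) and 15 ± 0.965 CPM (SD, n = 3). The log2 values of Bak1 were 0.12 ± 0.11 (SE) over 6 libraries and 0.03 ± 0.09 over 5.

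None of the 6 BH3-only members passed, and their directions were mixed, with 4 above 0 and 2 below with 6 libraries. Hrk, which encodes the BH3-only protein Harakiri, had the lowest log2 fold change of all members. It was at 2.05, 2.06 and 2.57 CPM under the Rosa26 gRNA and 0.981, 1.9 and 1.09 CPM under the JunD gRNA. The groups did not overlap, but JunD gRNA replicate 2 lay near the controls, and the reads counted were few, 89, 103 and 123 against 41, 78 and 54. The log2 fold change was -0.74 ± 0.28 (SE) with 6 libraries (adjusted p = 0.417) and -0.81 ± 0.27 with 5 (95% interval -1.37 to -0.25, adjusted p = 0.115). Its GC content is 51.4%, and after the correction it was at -0.79 with 5 libraries. With each of these 5 libraries left out in turn the value ran from -1.14 (without JunD gRNA replicate 2) to -0.63 (without Rosa26 gRNA replicate 3), and the adjusted p from 0.0344 to 0.694. Hrk passed in the first of these and without a count filter (adjusted p = 0.04), and in no other alternative that gave an adjusted p.

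Bcl2l11, whose product BIM binds the guardians, was even over the libraries. It stood at 27.1 ± 0.38 CPM under the Rosa26 gRNA and 26.9 ± 0.774 CPM under the JunD gRNA (SD, n = 3 each). With 5 libraries its 95% interval ran from -0.16 to 0.13. Bid, which links caspase 8 to mitochondria when cleaved, was at 5.54 ± 0.677 and 4.92 ± 0.619 CPM. Bcl2l13 overlaps 17.7% of Bid's exon bases on the opposite strand, with 24847 counts in all against 1432 for Bid. Without a strand setting the reads of Bid and Bcl2l13 cannot be told apart there. Bmf, a BH3-only protein tied to the cytoskeleton, was at 3.94 ± 0.76 and 4.68 ± 0.933 CPM, and Bik, whose product sits at the endoplasmic reticulum, at 1.64 ± 0.423 and 2.18 ± 0.274 CPM. Bad, which is held inactive by survival kinases, was at 13.8, 20.8 and 21.1 CPM under the Rosa26 gRNA and 21.8, 22.3 and 24.1 CPM under the JunD gRNA. Rosa26 gRNA replicate 1 was far below the rest, and the log2 fold change went from 0.30 ± 0.16 (SE) with 6 libraries to 0.12 ± 0.08 with 5. Gpr137, which overlaps 20.5% of Bad's exon bases on the opposite strand, had log2 fold changes of 0.35 and 0.13.

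None of the 4 guardians passed. Bcl2l2, the gene of BCL-W, was at 125.8 ± 4.39 CPM under the Rosa26 gRNA and 124.9 ± 1.97 CPM under the JunD gRNA (SD, n = 3 each), with an interval of -0.09 to 0.10 on the log2 scale with 5 libraries. Mcl1, a short-lived guardian, was at 173.3, 156.3 and 145.7 CPM and at 139.6, 143.1 and 145.2 CPM. Its groups did not overlap, but the lowest control and the highest JunD gRNA library nearly touched. Its log2 fold change was -0.13 ± 0.07 (SE) with 6 libraries (adjusted p = 0.435) and -0.08 ± 0.04 with 5 (adjusted p = 0.42). Bcl2l1, which encodes BCL-XL, was at 0.13 ± 0.08 with 6 libraries and 0.11 ± 0.07 with 5, and Bcl2 at -0.15 ± 0.14 and 0.00 ± 0.12. Summed per length, the 4 guardians came to 86.4, 79.7 and 78.7 RPKM under the Rosa26 gRNA and 75.8, 78.1 and 77.6 under the JunD gRNA. Of that sum Mcl1 and Bcl2l2 made up 90.1% to 91.7% in each library. The ratio of guardians to the 8 effector and BH3-only transcripts was 3.41, 2.6 and 2.62 against 2.4, 2.36 and 2.27. The JunD gRNA libraries had the lower ratios, and Rosa26 gRNA replicate 1 had the highest. These sums were chosen after the values were seen, and no test was made of them. They cover listed members only, so Bax, Bbc3 and Pmaip1 are not in them. Pmaip1 was lower under the JunD gRNA without overlap. The sums were not corrected for GC content. It was 57.1% to 61.0% for Bok, Bik, Bad and Bak1 and 48.0% to 53.7% for the other BH3-only members. For the guardians it was 46.3% to 55.9%. Whether the ratio differs between the guides after such a correction was not tested.

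Bag1 was at 102.1, 103.1 and 103.2 CPM under the Rosa26 gRNA and 107.8, 112.2 and 113.3 CPM under the JunD gRNA. The controls lay close together, and all JunD gRNA libraries were above them. The difference was small, at 0.13 ± 0.06 (SE) on the log2 scale with 6 libraries (adjusted p = 0.429) and 0.11 ± 0.05 with 5 (adjusted p = 0.218), and it was at 0.00 and 0.08 after the GC and length correction.

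No caspase passed. Of the initiators, Casp2 was at 36.8 ± 2.39 and 34.6 ± 1.09 CPM (SD, n = 3, Rosa26 then JunD gRNA here and below), Casp8, the death-receptor caspase, at 15.5 ± 1.05 and 15.2 ± 1.48, and Casp9, the apoptosome caspase, at 14.6 ± 1.32 and 14.2 ± 1.41. Their log2 fold changes lay between -0.09 and 0.02 with 5 libraries, each with an interval inside 0.25 either way. Casp6 was at 3.02 ± 0.359 and 2.76 ± 0.172 CPM.

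Casp4, the gene of the mouse inflammatory caspase also called caspase 11, which drives pyroptosis, was the lowest caspase in fold change. It stood at 6.15, 5.24 and 4.91 CPM under the Rosa26 gRNA and 4.69, 3.8 and 3.95 CPM under the JunD gRNA. The groups did not overlap, and Rosa26 gRNA replicate 1 was the highest library. The log2 fold change was -0.37 ± 0.15 (SE) with 6 libraries (adjusted p = 0.417) and -0.29 ± 0.15 with 5 (adjusted p = 0.35). Its GC content is 38.1%, and its corrected value was -0.19 with 5 libraries. Its promoter is shown because it held 3 of the NF-kB matches, more than any other member. The 250 bases are upstream of the RefSeq start on GRCm38.p6, plus strand, chr9:5308599-5308848, and capitals mark the matches, of which the first 2 overlap by all but 1 base.
Casp4: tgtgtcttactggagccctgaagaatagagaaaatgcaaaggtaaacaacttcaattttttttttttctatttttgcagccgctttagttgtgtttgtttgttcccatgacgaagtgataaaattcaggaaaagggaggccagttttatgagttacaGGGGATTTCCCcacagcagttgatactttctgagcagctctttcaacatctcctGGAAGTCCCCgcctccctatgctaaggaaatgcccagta

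Of the apoptosome pair, Apaf1 had 47.2, 33.5 and 33.3 CPM under the Rosa26 gRNA and 33.5, 32 and 28.6 CPM under the JunD gRNA. Rosa26 gRNA replicate 1 was above all others, and the log2 fold change was -0.26 ± 0.13 (SE) with 6 libraries and -0.09 ± 0.07 with 5. Cycs, the somatic cytochrome c gene, was at 3.06 ± 0.823 and 3.52 ± 0.862 CPM. Its value is uncertain, since reads that also match processed copies of this gene could be lost or split by the counting.

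Among proteins released from mitochondria, Endog had the highest fold change of all members without passing. It encodes the nuclease endonuclease G (ENSMUSG00000015337.5, chromosome 2 from 30171493 to 30174069, plus strand). Its level was 3.55, 7.14 and 5.16 CPM under the Rosa26 gRNA and 7.68, 7.38 and 8.83 CPM under the JunD gRNA. The groups did not overlap, although Rosa26 gRNA replicate 2 came close, and Rosa26 gRNA replicate 1 was the lowest. The log2 fold change was 0.60 ± 0.23 (SE) with 6 libraries (adjusted p = 0.417) and 0.38 ± 0.14 with 5 (adjusted p = 0.14), and 0.26 (adjusted p = 0.326) after the correction. Its GC content of 64.3% is the highest of all members. Spout1 overlaps 35.7% of Endog's exon bases on the opposite strand, with 10734 counts in all against 1820 for Endog. The 2 genes' reads cannot be told apart there without a strand setting. Spout1 had log2 fold changes of 0.13 and 0.09.

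Htra2 was at 61.1 ± 3.35 and 67.4 ± 1.61 CPM with groups that did not overlap, and its log2 fold change was 0.16 ± 0.08 (SE) in all 6 libraries, -0.02 after the correction there, and 0.11 ± 0.05 with 5 (adjusted p = 0.327). Aup1 overlaps 25.6% of the exon bases of Htra2 on the opposite strand and was at 0.10 and 0.02. Diablo, which encodes the IAP antagonist SMAC, was at 36.6 ± 3.23 and 38 ± 0.232 CPM. Aifm1, the gene of apoptosis-inducing factor, was at 39.2 ± 2.51 and 36.8 ± 2.62 CPM. With 5 libraries the intervals of Diablo and Aifm1 ran from -0.14 to 0.12 and from -0.24 to 0.04.

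The adaptors and kinases of death receptors did not pass either. Fadd was at 12.8 ± 1.71 and 12.3 ± 0.876 CPM, and Tradd, the adaptor of TNF receptor 1, at 15.4 ± 2.01 and 18.2 ± 2.2 CPM. Traf2, a ubiquitin ligase that recruits the cIAP proteins, was at 35.3 ± 1.9 and 36.9 ± 1.16 CPM. Ripk1, the kinase that serves both survival and death from TNF receptor 1, was at 42.2, 29.9 and 29.6 CPM under the Rosa26 gRNA and 30.3, 31.1 and 29.8 CPM under the JunD gRNA. Apart from Rosa26 gRNA replicate 1 all libraries lay close together, and the log2 fold change went from -0.14 ± 0.13 (SE) with 6 libraries to 0.03 ± 0.07 with 5. Dapk1, a calcium-regulated death kinase, was at 20 ± 0.963 and 21.2 ± 1.09 CPM. The mitophagy receptor genes Bnip3 and Bnip3l were at 4.33 ± 0.206 and 3.98 ± 1.08 CPM and at 17.4 ± 3.01 and 14.6 ± 1.29 CPM.

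The medians of both classes lay near that of all genes once Rosa26 gRNA replicate 1 was left out. With 6 libraries the median log2 fold change was -0.02 over 25 death-promoting members and -0.14 over 10 protective ones, against -0.01 over all genes. With 5 libraries these were 0.00, -0.04 and 0.00. After the GC and length correction they were 0.01 and -0.02 with 6 libraries and 0.00 and 0.02 with 5. Counting by direction, 12 death-promoting members were above 0 and 13 below with 6 libraries, and 4 protective members above and 6 below. The classes were described and not tested. Groups did not overlap over the 6 libraries for 11 of 35 members (31.4%, against 24.4% of all genes). Of these, 6 were lower under the JunD gRNA (Cflar, Mcl1, Hrk, Casp4, Birc2 and Birc3), or 17.1% of members against 12.8% of all genes. The 5 others were higher (Bok, Endog, Bag1, Htra2 and Bad), or 14.3% against 11.6%. By class, 4 of 10 protective members were lower without overlap (40%) and 1 was higher (10%). Of the 25 death-promoting members 2 were lower (8%) and 4 higher (16%). These shares were not tested, and CPM is not corrected for GC content.

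The members' fold changes followed GC content. Over the 35 tested members the Spearman correlation of log2 fold change with the GC content of the longest transcript was 0.763 with 6 libraries and 0.69 with 5, and over all genes 0.475 and 0.277. The points share the same 6 libraries, so these are descriptions. Rosa26 gRNA replicate 1 was below all 5 other libraries for 13 of the members and above all of them for 11, together 68.6% against 71.1% of all genes. Across members, each library's log2 deviation from the mean of the others (Rosa26 gRNA replicate 1 left out of the mean) was correlated with GC content. The coefficient was -0.75, -0.366 and -0.697 for the Rosa26 gRNA libraries and 0.0529, 0.294 and 0.641 for the JunD gRNA libraries, in replicate order. Over all genes it was -0.511, -0.189 and -0.246, and 0.062, 0.0251 and 0.306. Those means mix both guides, so the coefficients partly restate the trend of the fold changes. Among JunD gRNA libraries replicate 3 had the highest value, and replicate 1 was near 0. The trend of the fold changes was present without the library that stands apart (0.69 with 5 libraries). With the correction, which is fitted on all genes, the correlation among members was 0.371 with 6 libraries and 0.431 with 5, and over all genes 0.00752 and -0.00664. Median GC content was 51.3% among death-promoting and 47.6% among protective members. Whether GC content has a part in the members' differences was not tested beyond this correction, which left Birc3 called with 5 libraries.

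**Figure D4:**
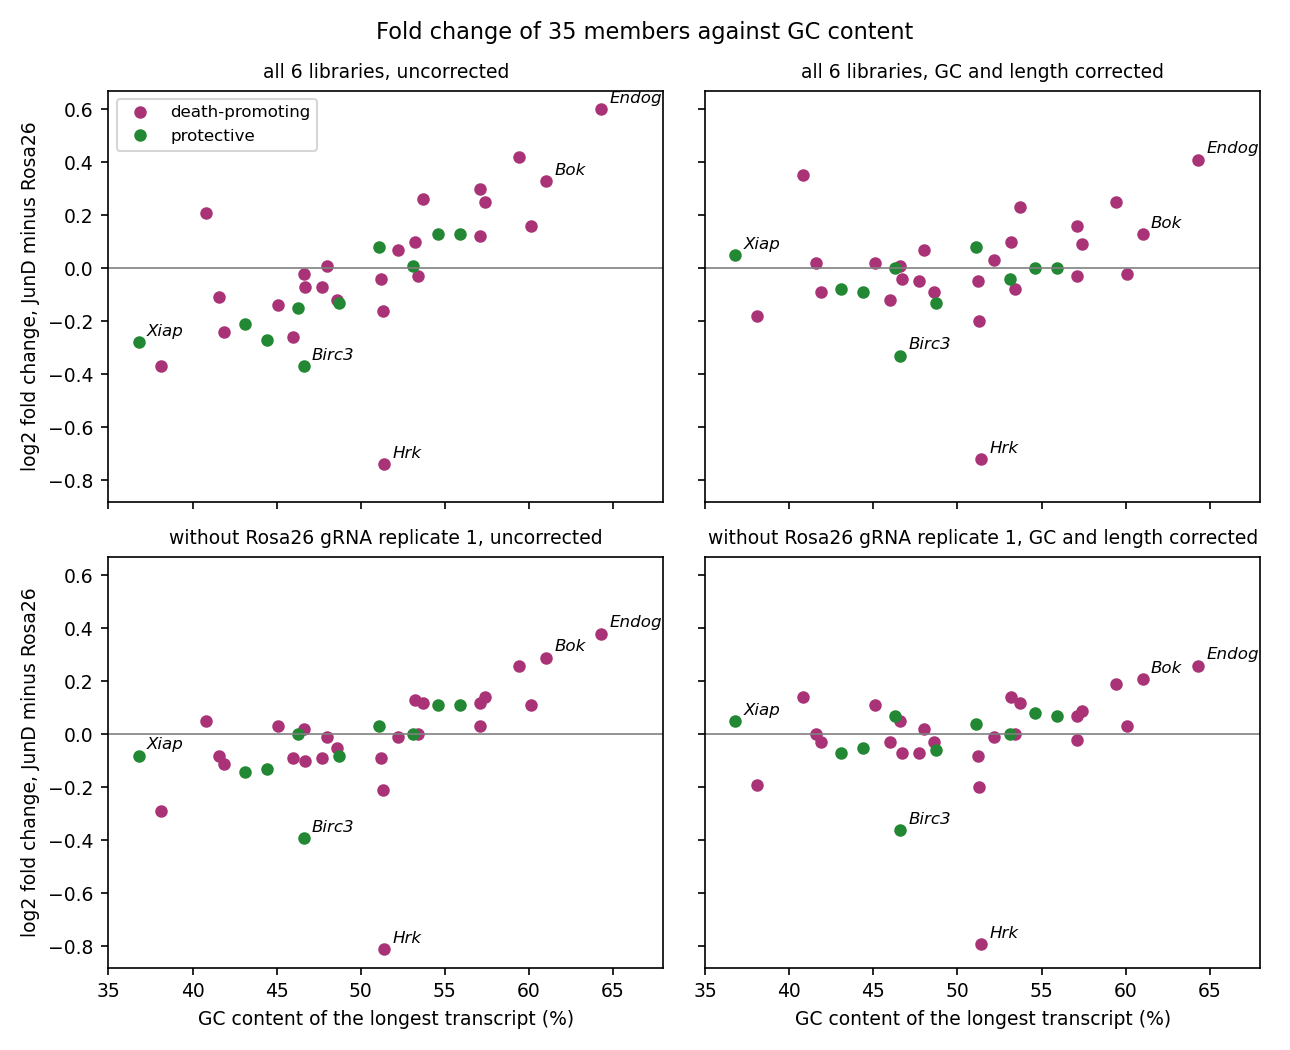
Log2 fold change (y axis, JunD minus Rosa26 gRNA) of the 35 tested members against GC content (x axis, percent), for 6 libraries (top) and 5 (bottom), as measured (left) and after the GC and length correction (right). The points rise with GC content on the left and less so on the right, where Hrk and Birc3 stay below the rest.

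Of 103 other genes of cell death matched by symbol, 87 were tested with 6 libraries and 0 passed, with 8 at an unadjusted p under 0.05 in edgeR (9.2%, against 11.9% of all genes). With 5 libraries 13 of 89 were at an unadjusted p under 0.05 (14.6%, against 15.9%). At an adjusted p under 0.05, 1 of 89 rose and 2 fell (3.37%, against 2.86% of all genes). Bag3, a heat-shock cochaperone that supports survival and selective autophagy, rose by 0.25 ± 0.05 (SE) on the log2 scale (adjusted p = 0.00794). It stood at 85.5, 97 and 91.4 CPM under the Rosa26 gRNA and 105.8, 111.4 and 116.9 CPM under the JunD gRNA, without overlap. Ripk2, the kinase that carries NOD receptor signals to NF-kB, fell by 0.43 ± 0.10 (adjusted p = 0.0176). It was at 12.6, 12 and 12.8 CPM and at 9.19, 9.18 and 9.27 CPM, and Rosa26 gRNA replicate 1 lay among the controls. Trp53inp1, a stress-induced gene that promotes death and autophagy, fell by 0.35 ± 0.07 (adjusted p = 0.00468), from 63.8, 45.7 and 46.3 CPM to 33.3, 35.8 and 39 CPM. Its GC content is 38.8%, and after the correction it did not pass (-0.23, adjusted p = 0.0557), whereas Bag3 (0.21, adjusted p = 0.00597) and Ripk2 (-0.40, adjusted p = 0.0174) did. With 6 libraries the values of these 3 genes were 0.30, -0.42 and -0.51, each with an adjusted p of 0.417. None of the 3 passed once Rosa26 gRNA replicate 2 or 3 was left out as well: the adjusted p was then 0.0827 and 0.407 for Bag3, 0.125 and 0.42 for Ripk2 and 0.105 and 0.243 for Trp53inp1.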

How the data were processed

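The deposited files hold raw read counts per Ensembl gene, 1 per library, for 6 libraries. Reads were processed with TopHat2 and featureCounts on mm10, per the submitters' processing notes. Their versions and the strand setting were not stated in the sources used. Exons of 12 members overlap another gene, and for 11 members such a gene is on the opposite strand. Of 53379 gene identifiers 53274 matched a GENCODE M21 symbol without version. The members and gene lists were chosen with earlier results of these data known.

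Counts were tested with edgeR 4.0.16 (filterByExpr, TMM, quasi-likelihood test on group, Benjamini-Hochberg adjustment over all genes tested, threshold 0.05), once with all 6 libraries and once without Rosa26 gRNA replicate 1. The procedure was tested on simulated data. These had no library set apart and no GC trend, so the simulation says nothing on how either affects the calls. SE is the absolute log2 fold change over the root of F, an approximation, and intervals are 95%. The GC and length correction used splines with 5 degrees of freedom. Alternatives were RLE, upper-quartile and total scaling, DESeq2 1.42.0, limma-voom (limma 3.58.1), no filter, a filter of 1 CPM in 3 libraries, a replicate block, an adjusted p of 0.01 and each library left out. R 4.3.3, Python 3.11.15, pandas 2.3.3, scipy 1.17.1 and matplotlib 3.10.9 were used. All 37 members were named, with per-library values for those with an unadjusted p under 0.05 in either analysis; per-library values of Xiap, Bad, Mcl1, Apaf1, Ripk1 and Ripk3 were added after they were seen. Of the other genes of cell death, those with an adjusted p under 0.05 were named.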

Additional observations from a re-analysis of the deposited data

How the results depend on the processing

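With all 6 libraries edgeR called 0 genes, and the count was 67 with DESeq2, 86 with no count filter, 25 with the GC and length correction and 0 to 523 with each library left out; members called ranged from 0 to 1. With 5 libraries 523 genes were called, against 148 at an adjusted p of 0.01, 870 with no count filter and 46 to 672 with each library left out. The replicate block gave 832 genes and 2 members there. Deviations of same-numbered libraries from their group means were hardly correlated (r = 0.0555, -0.0393 and 0.0742). The Rosa26 gRNA means include replicate 1, which stands apart, so this cannot exclude that replicates were paired. The labels do not say whether they were. Members called were 0 at an adjusted p of 0.01, 2 with DESeq2, 3 with no count filter, 2 with the stricter filter and 0 to 2 with each library left out. Among members more than 1 SE from 0, the GC and length correction turned some signs. With 6 libraries it turned those of Bak1 (-0.030), Bcl2l1 (-0.005), Htra2 (-0.024), Bag1 (-0.001), Ripk1 (0.021) and Xiap (0.055). With 5 libraries it turned that of Xiap (0.051). Leaving out libraries moved Ripk1 from -0.219 to 0.033 with 6 and Casp2 from -0.180 to 0.006 with 5. The death-promoting median was 0.038 without double-role members and -0.016 to 0.032 with libraries left out (6 libraries), and -0.012 to 0.048 (5 libraries). The protective median was -0.024 after the correction and -0.192 to -0.039 with libraries left out (6 libraries), and -0.077 without double-role members, 0.020 after the correction and -0.068 to 0.001 with libraries left out (5 libraries). With 5 libraries, leaving out another control left 1, assumed to vary like the other group. Among members within 1 SE of 0, 12 with 6 libraries and 14 with 5, the sign changed in 20 and 41 settings.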
